A study of Mus musculus with 12 samples.

Results

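The BPI fold genes Bpifb6, Bpifb3, Bpifb4, Bpifa1, Bpifb1, Bpifb5, Bpifb9a and Bpifb9b were followed through the olfactory mucosa of mice with and without enhancer A (eA), a regulatory element of odorant receptor genes. They were chosen by symbol, and all 8 were found among the 46297 gene rows of the deposited table. The wildtype group held 6 male mice at postnatal day 30 with the strain label 129S6;C57BL/6J. The deletion group held 6 male mice of the same age and strain label that lacked eA, a stretch of 912 bp on chromosome 7 (chr7:102509701-102510612, read as GRCm38). Each animal gave 1 library of total RNA depleted of ribosomal RNA, and no group received a treatment. The labels do not say whether the deletion was on both chromosomes or whether the animals were littermates.

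Proteins with a BPI fold share a domain with a pocket for lipids. The fold is named after the bactericidal/permeability-increasing protein of neutrophils, which binds the lipopolysaccharide of bacteria. Most members of the family are secreted by the epithelia and glands of the nose, mouth and airways into the fluid that covers them. In the olfactory mucosa, members of the family are known as abundant products of the glands beneath the epithelium, which also release the lipocalins, small carrier proteins for odorants and pheromones.

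The 8 genes lie on chromosome 2, on the plus strand, within 420.259 kb (chr2:153900388-154320646, GENCODE M21 on GRCm38), and so on another chromosome than eA. The stretch holds 15 annotated genes, 12 of them protein coding, and all 12 of these are Bpif genes. In chromosome order Bpifb6 spans chr2:153900388-153912795, Bpifb3 chr2:153918230-153932996, Bpifb4 chr2:153938212-153964101 and Bpifa1 chr2:154142880-154149219. Bpifb1 follows at chr2:154190818-154220369, Bpifb5 at chr2:154223742-154240902, Bpifb9a at chr2:154257854-154271245 and Bpifb9b at chr2:154307227-154320646. No annotated gene overlaps any of the 8.

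The values below set Bpifb5, Bpifb9a and Bpifb9b, the last 3 genes of the stretch, apart from the other 5, so the sequence just before their starts is shown. The 3 runs are from RefSeq on GRCm38.p6, plus strand, and end at the base before the GENCODE start of the gene. They cover chr2:154223622-154223741 for Bpifb5, chr2:154257734-154257853 for Bpifb9a and chr2:154307107-154307226 for Bpifb9b. Capitals mark TATAAA, the core of the TATA box, which positions the start of transcription in many genes.
Bpifb5: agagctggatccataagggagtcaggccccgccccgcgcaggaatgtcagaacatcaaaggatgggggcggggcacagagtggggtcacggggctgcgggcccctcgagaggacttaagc
Bpifb9a: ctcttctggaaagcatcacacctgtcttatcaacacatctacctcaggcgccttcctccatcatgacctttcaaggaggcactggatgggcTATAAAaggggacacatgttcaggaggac
Bpifb9b: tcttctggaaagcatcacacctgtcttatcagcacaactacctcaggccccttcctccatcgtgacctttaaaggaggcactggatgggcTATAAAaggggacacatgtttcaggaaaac

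The runs of Bpifb9a and Bpifb9b are nearly the same, and over the 250 bases before the RefSeq start the 2 genes were 89.1% identical. Bpifb5 was at most 51.9% identical to either over windows of that length. TATAAA was searched on both strands (TTTATA on the other) in the 250 bases before each RefSeq start, and it does not overlap itself. It was found in 3 of 10 windows of the 8 genes, all on the strand of the gene. From the RefSeq start it lay at -54 in Bpifb9a, -47 in Bpifb9b and -29 in Bpifa1. The RefSeq starts of Bpifb9a and Bpifb9b (154257879 and 154307244) lie after the GENCODE starts (154257854 and 154307227), just before which the printed runs end. In these 2 genes the motif is therefore nearer to the GENCODE start than the positions say. Of 32851 windows of that length over all genes, 12.4% held it on either strand and 7.59% on the strand of the gene. The letters were not in the window of Bpifb5, so the motif is not something its window shares with the other 2.

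The libraries held 13011763 to 23039733 reads on annotated genes. The olfactory marker protein gene Omp, a gene of mature sensory neurons, had at least 54313 normalized counts in every library, and Cyp2g1, an enzyme of the sustentacular cells that support them, at least 55518, as the tissue label says. Gland genes were also present in every library: the sum of Sox9, Sox10, Aqp5, Muc5b, Gpx6 and Kcnn4 ran from 30861 to 43397 in wildtype and from 19448 to 42243 in the deletion. The sum of 6 respiratory secretory genes, mostly Cyp2f2 with a mean of 16673, was 14296 to 18650 in wildtype and 15255 to 20795 in the deletion. Their defining gene Scgb1a1 was at 0 in 6 libraries and at most at 4.04. Scgb3a2 was also at 0 in 6 libraries, with a mean of 1.36, while Scgb3a1, Spdef and Muc5ac had means of 142, 175 and 225. In whole tissue these genes do not show which cell a read of a Bpif gene came from, and fewer cells of a type cannot be told apart from less RNA per cell. In 4 libraries, wildtype 2 and 3 and deletion 3 and 6, the satellite gene Gm10800 took over 1% of reads, so results are also given without them where that matters.

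Together the 8 genes took 0.785% to 1.66% of all reads of a library. Levels can be compared between genes only per length, and as normalized counts per kb of the longest coding transcript the order was led by Bpifa1 with 79878 ± 14380 (SD, n = 12), followed by Bpifb3 with 25067 ± 4596. Bpifa1 stood above the other 7 genes in 12 of 12 libraries. Bpifb6 came next by mean with 12279 ± 2471 per kb, below Bpifb3 in 12 of 12 libraries.

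Below these the order was looser. Bpifb9b had 9455 ± 13473 normalized counts per kb, an SD larger than its mean, and stood above Bpifb4, with 5011 ± 1194, in 4 of 12 libraries only. Bpifb6 stood above Bpifb9b in 9 libraries, and Bpifb3 in all but deletion 6, where Bpifb9b had 43355 per kb and Bpifb3 23473. Neither Bpifb6 nor Bpifb4 therefore differed from Bpifb9b beyond the spread. By group mean Bpifb9b was rank 5 in wildtype, with 3572 ± 4699 per kb (SD, n = 6), below Bpifb4. In the deletion it was rank 3, with 15338 ± 17153, above Bpifb6 at 12092 ± 3315. Deletion 1, 5 and 6 were the only libraries where Bpifb9b exceeded Bpifb6, and its SD exceeded its mean in both groups. The levels of Bpifb9a and Bpifb9b apart from each other are uncertain (below). The order of the other 7 genes by mean was the same in both groups. Bpifb9a had 2395 ± 3434 per kb and stood above Bpifb1 in 8 of 12 libraries, so these did not differ beyond their spread either. Bpifb1 had 360 ± 95.7 per kb, and Bpifb5 was last by mean with 232 ± 308, below Bpifb1 in 10 of 12 libraries.

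**Figure D1:**
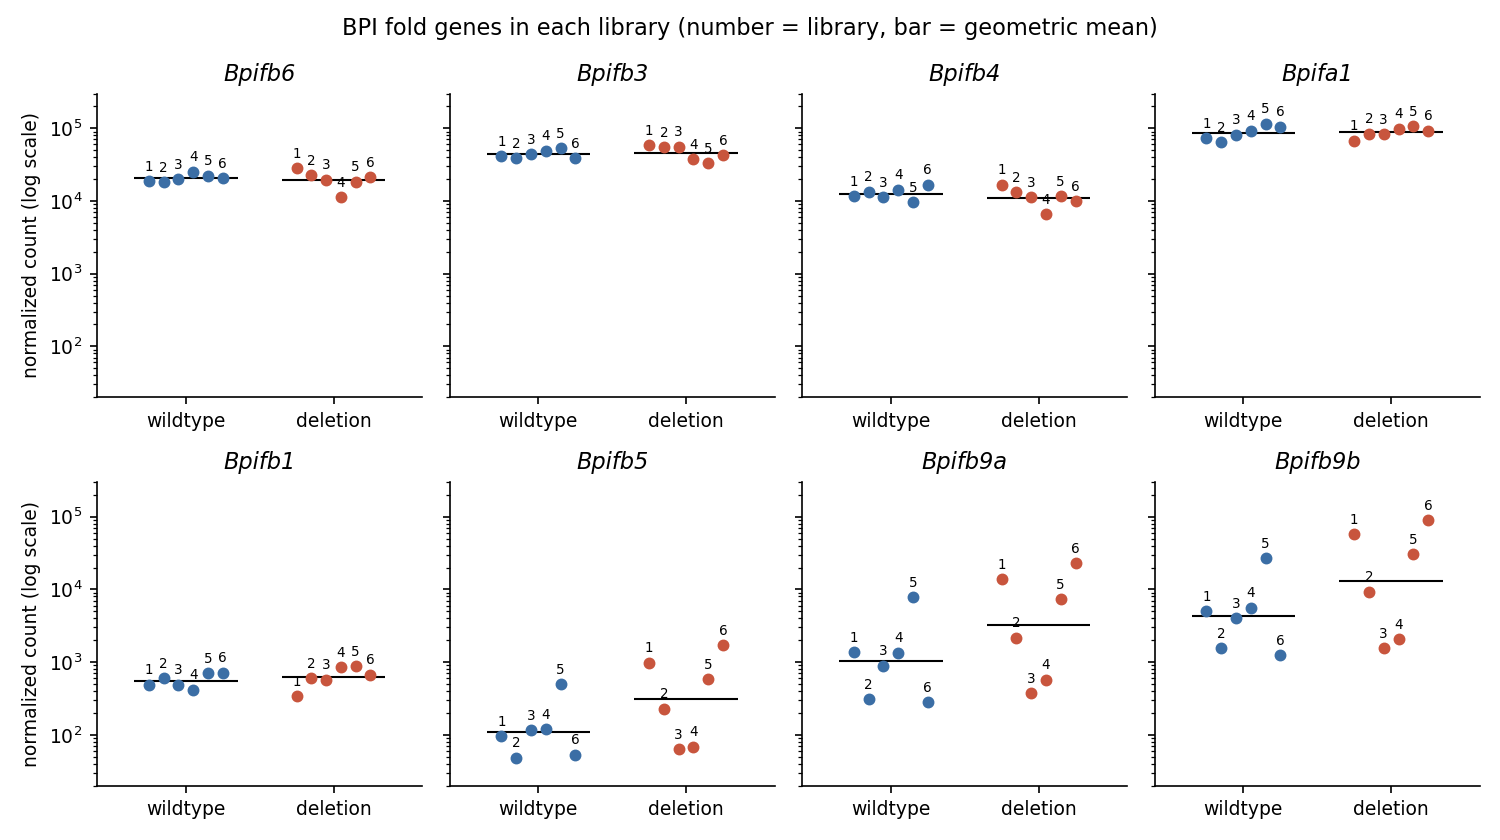
Normalized count (log axis) of each of the 8 BPI fold genes in the 6 wildtype and 6 deletion libraries, with the library number beside each point and a bar at the geometric mean of the group. The groups overlap for every gene, and Bpifb5, Bpifb9a and Bpifb9b spread over 34.99-fold, 81.7-fold and 72.1-fold between libraries while the other 5 spread over 1.76-fold to 2.57-fold.

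The comparison of deletion with wildtype asks whether the expression of these genes differed without eA. None of the 8 passed. All 8 were above the low-value filter, a mean of at least 10 normalized counts, and 0 of 8 were called at an adjusted p under 5% by limma on log2(value + 1), against 0.372% of all 19373 genes tested. At an unadjusted p under 0.05 limma also had 0 of 8, against 6.68% of all genes, a count that moved with single libraries. It was 3 (Bpifb5, Bpifb9a and Bpifb9b) without wildtype 5, without deletion 3 or without deletion 4, and 1 (Bpifb1) without deletion 1. In the same order, 1871 of 19448, 1301 of 19327, 1508 of 19418 and 1574 of 19434 genes tested were under 0.05. Bpifb5, Bpifb9a and Bpifb9b vary together (below), so they are not 3 separate results. The edgeR quasi-likelihood test and DESeq2 on recovered reads called 0 of 8 as well, against 0.346% and 0.268% of the genes they tested, and each had 2 genes, Bpifb5 and Bpifb9b, at an unadjusted p under 0.05, against 6.67% and 5.32%. Fold changes are given as deletion over wildtype on the log2(value + 1) scale.

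Bpifb6, Bpifb3 and Bpifb4 lie side by side at the start of the stretch. In the rat, the products of the genes corresponding to Bpifb3 and Bpifb4 are known as RYA3 and RY2G5, found in the olfactory mucosa. BPIFB6 is known from cultured human cells as a protein of the endoplasmic reticulum with a role in vesicle traffic. Bpifb6 had between 18175 and 25193 normalized counts in wildtype, with a median of 20328, and between 11195 and 28091 in the deletion, with a median of 20494. The deletion libraries held both the lowest value (deletion 4) and the highest (deletion 1), and the groups overlapped. The difference in log2 level was -0.09 ± 0.16 (SE), with an adjusted p of 0.913 (limma) and a 95% interval of -0.44 to 0.26.

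Bpifb3 had between 38848 and 52718 normalized counts in wildtype, with a median of 42659, and between 33182 and 58411 in the deletion, with a median of 48924. Deletion 1, 2 and 3 were above every wildtype library and deletion 4 and 5 were below every one, so the deletion group lay on both sides of the wildtype range. The log2 difference was 0.07 ± 0.14 (SE), with an adjusted p of 0.923 (limma) and a 95% interval of -0.24 to 0.37, and its sign turned in the 8 libraries with little Gm10800, to -0.02.

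Bpifb4 had between 9650 and 16624 normalized counts in wildtype, with a median of 12404, and between 6533 and 16610 in the deletion, with a median of 11363. Deletion 4 was again the lowest library, and no deletion library exceeded the highest wildtype library. The log2 difference was -0.18 ± 0.18 (SE), with an adjusted p of 0.838 (limma) and a 95% interval of -0.57 to 0.20. Deletion 4 also had the lowest summed level of the 6 gland genes, 19448, in which Gpx6 was at its lowest with 10917. The part of gland content in the low values of Bpifb6 and Bpifb4 in that library was not tested. Without it the log2 difference was 0.07 for Bpifb6, the opposite sign, and -0.03 for Bpifb4, while without deletion 1 that of Bpifb4 was -0.30.

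Bpifa1 and Bpifb1 are the family members best known from the airways. Bpifa1 encodes SPLUNC1, a secreted protein that lowers surface tension, acts against bacteria and regulates the epithelial sodium channel, and Bpifb1 encodes a longer secreted relative, LPLUNC1. Bpifa1 had between 64542 and 115166 normalized counts in wildtype, with a median of 87195, and between 66948 and 105946 in the deletion, with a median of 88300.2. The deletion range lay within the wildtype range, and the log2 difference was 0.01 ± 0.15 (SE), with an adjusted p of 0.990 (limma) and a 95% interval of -0.31 to 0.33. Its sign turned with the tool, being -0.0088 by edgeR and -0.0040 by DESeq2.

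Bpifb1 had between 420.0 and 712 normalized counts in wildtype, with a median of 546, and between 343 and 880 in the deletion, with a median of 636. The lowest library was deletion 1 and the highest deletion 5 and 4, which were above every wildtype library. The log2 difference was 0.16 ± 0.20 (SE), with an adjusted p of 0.871 (limma) and a 95% interval of -0.26 to 0.58. It was 0.33 without deletion 1 (limma, 0.0425 unadjusted, adjusted p 0.604) and 0.06 without deletion 5.

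Bpifb5, Bpifb9a and Bpifb9b behaved differently from these 5 in one respect, their spread between animals. Bpifb9 is the mouse relative of rat vomeromodulin, a secreted protein of nasal glands that was proposed to carry pheromones to the vomeronasal organ. Bpifb5 is a shorter neighbour of the same family. In all 3 genes the 4 highest libraries were wildtype 5 and deletion 1, 5 and 6, and deletion 6 was the highest of all.

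Bpifb9b had between 1242 and 26874 normalized counts in wildtype, with a median of 4507, and between 1566 and 89616 in the deletion, with a median of 19943. Wildtype 5 stood far above the other 5 wildtype libraries, which reached at most 5609, and deletion 3 and 4 were among the lowest libraries, so the groups overlapped. The mean was 4.29-fold higher in the deletion, the log2 difference was 1.61 ± 0.96 (SE), and the adjusted p was 0.772 (limma), with a 95% interval of -0.44 to 3.66.

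Bpifb9a had between 282 and 7742 normalized counts in wildtype, with a median of 1126, and between 375 and 23039 in the deletion, with a median of 4777. The same libraries were high and low as for Bpifb9b. The mean was 3.96-fold higher in the deletion, the log2 difference was 1.65 ± 0.99 (SE), and the adjusted p was 0.773 (limma), with a 95% interval of -0.46 to 3.76.

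Bpifb5 had between 48.5 and 501 normalized counts in wildtype, with a median of 106, and between 64.0 and 1696 in the deletion, with a median of 405. Again wildtype 5 stood above the other wildtype libraries and within the range of the deletion. The mean was 3.88-fold higher in the deletion, the log2 difference was 1.52 ± 0.76 (SE), and the adjusted p was 0.744 (limma; 0.0647 unadjusted), with a 95% interval of -0.10 to 3.14. Two-sided exact permutation tests over the 924 splits of 6 against 6 gave p of 0.136 for Bpifb5, 0.208 for Bpifb9a and 0.210 for Bpifb9b, not adjusted for the number of genes.

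For these 3 genes the intervals run from slightly below 0 to more than 3 on the log2 scale, so neither a lack of difference nor a large rise could be shown with 6 animals a group. In 4 of 6 deletion libraries each of the 3 genes was above its wildtype mean. The estimates depended on single animals: without deletion 6 the log2 difference was 1.03 for Bpifb5, 1.08 for Bpifb9a and 1.05 for Bpifb9b, and without deletion 3 it was 1.98, 2.27 and 2.22. In the 8 libraries with little Gm10800 it was 1.22, 1.24 and 1.29. The authors' deposited table gives shrunken log2 fold changes of wildtype over deletion of -0.07 for Bpifb5, -0.05 for Bpifb9a and -0.05 for Bpifb9b, with adjusted p-values of 0.823, 0.880 and 0.875, the same direction with no call.

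**Figure D2:**
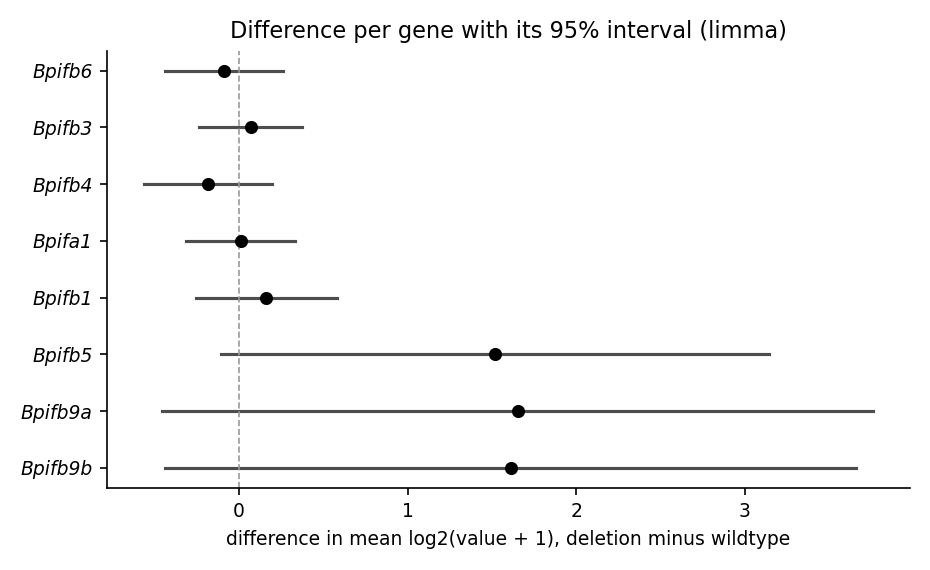
Difference in mean log2(value + 1), deletion minus wildtype, for each of the 8 genes (points) with its 95% interval from limma (lines). Every interval includes 0, and those of Bpifb5, Bpifb9a and Bpifb9b, reaching 3.14, 3.76 and 3.66, are much wider than those of the other 5.

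The spread between animals of one group set the 3 genes apart from most genes of the tissue. Within groups, the SD of log2(value + 1) was 1.63 for Bpifb5, 2.13 for Bpifb9a and 2.07 for Bpifb9b. Of the 19373 genes tested, 122, 54 and 64 had a larger SD. For the other 5 genes the SD was 0.28 to 0.41, with 3669 to 6428 genes above them. Among the 57 tested genes whose mean lay within 0.5 of Bpifb9b on the log2 scale, 1 had a larger SD, and this was so for 4 of 517 around Bpifb9a and 5 of 2731 around Bpifb5. Around the other 5 it was so for 46 of 2831 (Bpifb1), 7 of 109 (Bpifb4), 8 of 53 (Bpifb6), 7 of 17 (Bpifb3) and 0 of 4 (Bpifa1). A spread above most genes of like level was therefore not particular to Bpifb5, Bpifb9a and Bpifb9b, whose SD was the larger.

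**Figure D3:**
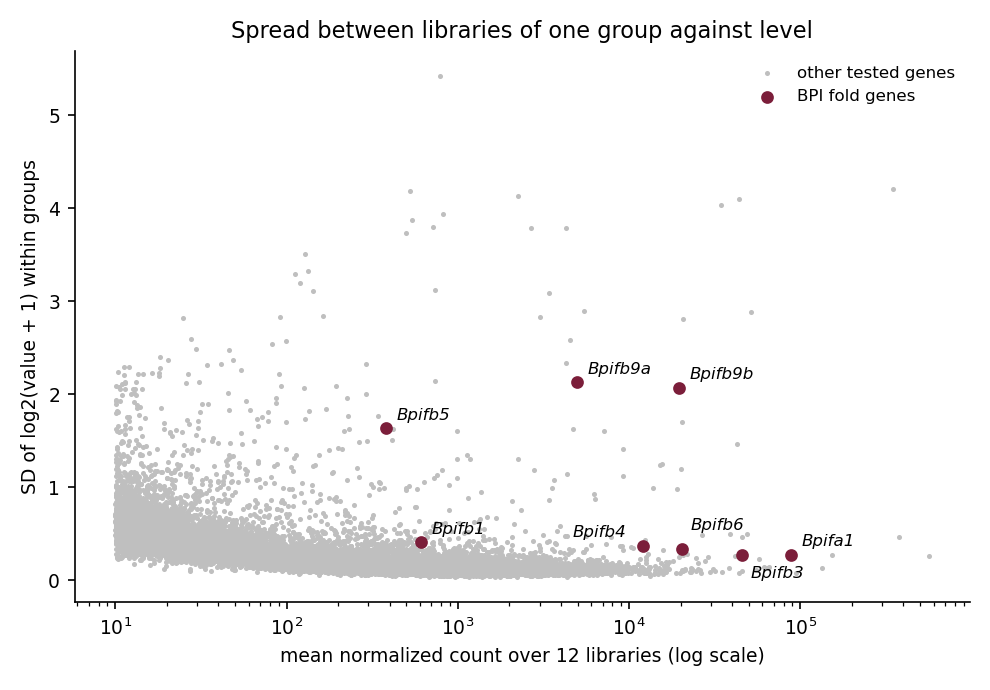
SD of log2(value + 1) within groups against the mean normalized count over 12 libraries (log axis) for the 19373 genes tested, with the 8 BPI fold genes in dark red. Bpifb5, Bpifb9a and Bpifb9b, at 1.63, 2.13 and 2.07, lie above most genes of their level. The other 5 lie lower, between 0.28 and 0.41, but also above most genes of their level.

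Because of this spread the make-up of the BPI fold reads differed from animal to animal. Bpifb5, Bpifb9a and Bpifb9b together gave 0.864% of the reads of the 8 genes in wildtype 6 (Wilson 95% interval 0.828 to 0.9003) and 40.6% in deletion 6 (40.5 to 40.8), where the intervals reflect counting error and nothing else. The share was 14.9% in wildtype 5, 18.5% in deletion 5 and 29.7% in deletion 1. In the remaining 7 libraries it lay between the value of wildtype 6 and the 6.26% of deletion 2. The mean over 6 libraries was 4.72% ± 5.17 (SD) for wildtype and 16.3% ± 16.2 for the deletion.

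The 3 genes varied together over the libraries. Over the 12 libraries Pearson's r of log2(value + 1) was 0.998 between Bpifb9a and Bpifb9b, 0.991 between Bpifb5 and Bpifb9b, and 0.987 between Bpifb5 and Bpifb9a, with Spearman's rho of 0.986, 0.986 and 0.965. Each had a permutation p of 1e-05 for r and for rho, the smallest that 100000 resamples can give, and an adjusted p of 9.33e-05 over all 28 pairs of the 8 genes. Without deletion 6 and deletion 1, the 2 libraries farthest from the median, r was 0.977 to 0.996. Within the groups of 6, r was 0.971 to 0.998 in wildtype and 0.997 to 0.999 in the deletion, so the pattern was seen among animals of either genotype. Within wildtype the pairs with Bpifb5 no longer passed (adjusted p of 0.0648 with Bpifb9a and 0.0544 with Bpifb9b, exact permutation test, Pearson's r), where wildtype 5 stands apart from the other 5. In the 8 libraries with little Gm10800 r was 0.981 to 0.998.

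How far this can be read for Bpifb9a and Bpifb9b separately is limited by their sequence. Their longest coding transcripts, of 2065 and 2067 bases, were 99.2% identical, with 14 mismatches, and 71.4% of the 50-base windows of the Bpifb9a transcript occur in that of Bpifb9b. How reads that match both were counted is unknown here, so the level of each gene on its own is uncertain. Bpifb9a made up 16.5% to 22.4% of the reads of the pair in the 12 libraries. The other 27 pairs were 37.5% to 53.9% identical with no shared 50-base window and identical runs of at most 13 bases, so Bpifb5 had no such window in common with either gene. Per 1000 normalized counts of Bpifb9b there were 17.2 to 43.0 of Bpifb5, a 2.50-fold range beside the 72.1-fold range of Bpifb9b itself. This ratio was lower where Bpifb9b was high. It was 17.2 to 19.0 in wildtype 5 and deletion 1, 5 and 6, which had the most Bpifb9b. In wildtype 2 and 6 and deletion 3 and 4, which had the least, it was 31.1 to 43.0. Bpifb5 thus changed less than in proportion to Bpifb9b.

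Over the 12 libraries, correlations with the other genes of the stretch were weaker. The 15 pairs of Bpifb5, Bpifb9a or Bpifb9b with the other 5 genes had r of -0.11 to 0.46, and 0 of 15 passed after adjustment (smallest adjusted permutation p 0.356). Bpifb1 ends 3372 bp before Bpifb5 begins, and its r with Bpifb5 was -0.06. Among the other 5 genes r ran from -0.67 to 0.77 over 10 pairs, and 0 of 10 passed. The strongest of these by r, Bpifb6 with Bpifb4 (r of 0.77, rho of 0.38, permutation p 0.00748, adjusted 0.0524), had r of 0.14 without deletion 4 and deletion 1, so it rests on those libraries. By rank the strongest were Bpifb6 with Bpifb3 and Bpifa1 with Bpifb1, each with rho of 0.73 (adjusted permutation p 0.0542). Their r was 0.65 and 0.67, and without the 2 libraries farthest from the median of the first gene it was 0.61 and 0.67. Within wildtype, Bpifb3 went with Bpifb5 by r (0.905, exact permutation p 0.00278, adjusted 0.0389). By rank this pair did not pass there (rho of 0.943, adjusted 0.156, exact permutation test). Wildtype 5 was the highest wildtype library of both genes. Within the deletion r was -0.06, and the difference between the groups was not tested. Bpifb3 was close to this within wildtype with Bpifb9b and Bpifb9a too, with r of 0.903 and 0.886 (adjusted 0.0544 each, exact permutation test). Bpifb4 had r of -0.78 with Bpifb5, -0.80 with Bpifb9a and -0.81 with Bpifb9b within wildtype (adjusted 0.199 each), but 0.46 to 0.49 within the deletion. Within the deletion, Bpifa1 went with Bpifb1 (r of 0.985, exact permutation p 0.00139, adjusted 0.00972), against 0.44 within wildtype, again with no test of the difference. Bpifb3 ran in the opposite order to both, with rho of -1.0 to each within the deletion (adjusted 0.0130, exact permutation test) and r of -0.90 with Bpifa1 and -0.85 with Bpifb1 (adjusted 0.0667 for each r). Within wildtype the rho of Bpifb3 was 0.43 with Bpifa1 and -0.37 with Bpifb1.

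**Figure D4:**
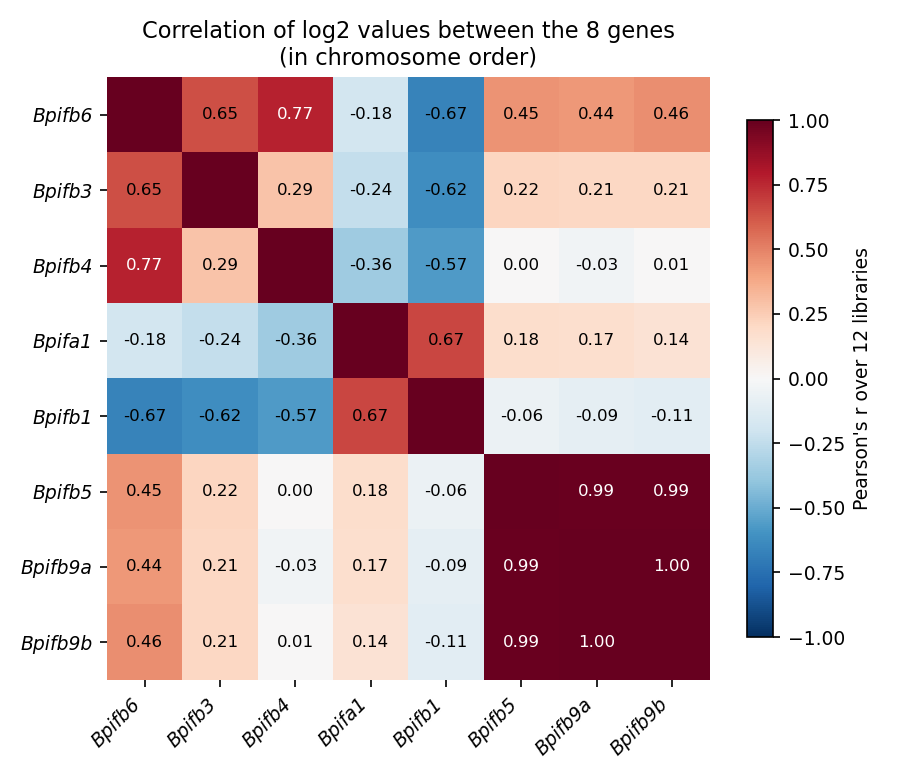
Pearson's r of log2(value + 1) over the 12 libraries for the 28 pairs of the 8 genes, in chromosome order, from -1 (blue) to 1 (red). The block of Bpifb5, Bpifb9a and Bpifb9b stands at 0.987 to 0.998, while their pairs with the other 5 genes lie between -0.11 and 0.46.

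Outside the family, the genes most like Bpifb5, Bpifb9a and Bpifb9b were Odam and Cabs1, both on chromosome 5. Odam encodes a secreted protein known from enamel-forming cells and the gum epithelium, and Cabs1 a calcium-binding protein known from spermatids. Pearson's r over the 12 libraries was 0.958 to 0.967 for Odam and 0.958 to 0.972 for Cabs1. A further gene, 2310003L06Rik, had the highest r of all, 0.973 to 0.982. It is listed under a clone name in the deposited table, was matched by its identifier, and was named after its values were seen. Among the 19365 other genes tested, only these 3 reached r of 0.9 with Bpifb5, Bpifb9a or Bpifb9b, and all 3 were over 0.95 with each. The genes were picked for this likeness out of all genes, so r is a description.

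In the same libraries that were high for Bpifb9b these genes were high too. Odam had between 7.23 and 85.5 normalized counts in wildtype, highest in wildtype 5, and between 8.97 and 244 in the deletion, highest in deletion 6. Cabs1 had between 9.22 and 128 in wildtype and between 6.85 and 286 in the deletion, with the same libraries highest. 2310003L06Rik had between 15.9 and 327 in wildtype and between 30.8 and 912 in the deletion. The 4 highest libraries of each of the 3 were wildtype 5 and deletion 1, 5 and 6, as for the Bpif genes.

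The 3 companions lie within 96.5 kb of one another (chr5:87885029-87981544, GRCm38), a stretch with 8 annotated genes of which 5 could be tested. The remaining 2 tested genes of it did not follow. Csn3, which encodes the milk protein kappa-casein, had r of -0.20 to -0.13 with Bpifb5, Bpifb9a and Bpifb9b. BC051076, which lies between Odam and Cabs1 and was named after its values were seen, had 1716 to 28140 normalized counts over the libraries and r of -0.14 to -0.06. Further genes were less like them: the next by the rule were Suclg2 for Bpifb5, Tmub2 for Bpifb9a and Naprt for Bpifb9b, with r of 0.873, 0.857 and 0.863.

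**Figure D5:**
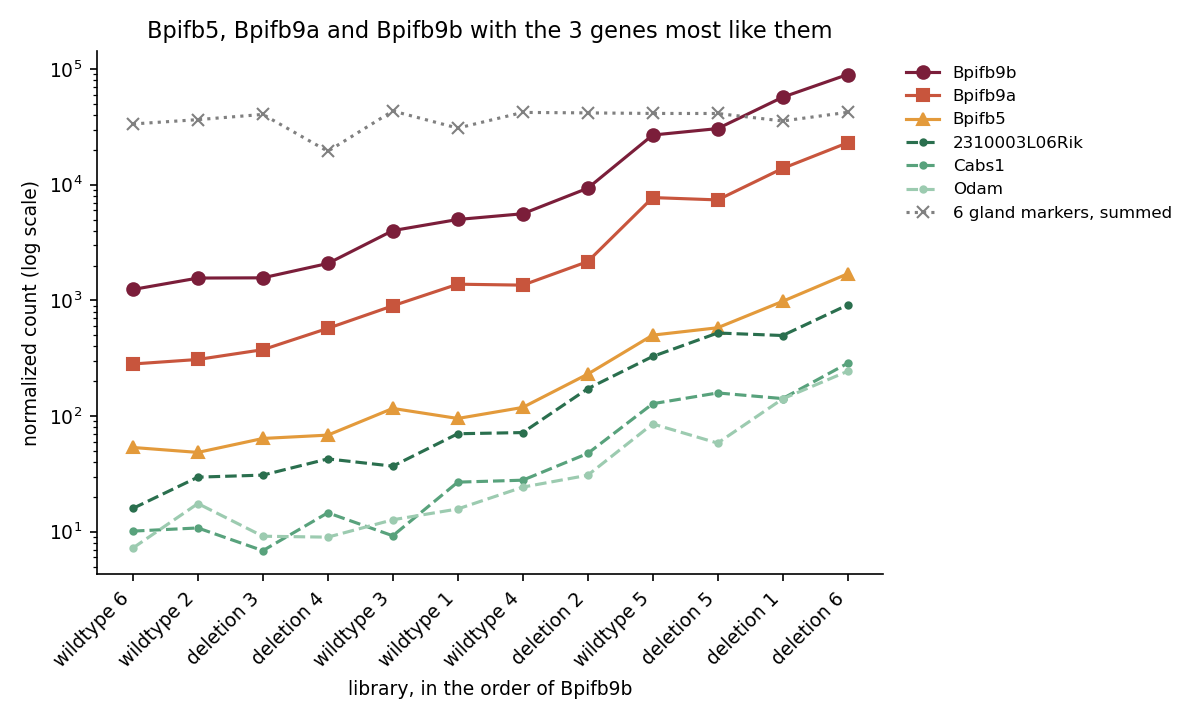
Normalized counts (log axis) of Bpifb9b, Bpifb9a and Bpifb5 (solid lines), of 2310003L06Rik, Cabs1 and Odam (dashed) and of the sum of 6 gland genes (dotted) in the 12 libraries, ordered by Bpifb9b. The first 6 curves climb together, from 1242 in wildtype 6 to 89616 in deletion 6 for Bpifb9b. The gland sum, which is mostly Gpx6, stays between 19448 and 43397.

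The other 5 genes had different companions, also chosen by r over 12 libraries and given as a description. They were Sphk2, Hhip and Sirt5 for Bpifb6 (highest r 0.925), Aldh1a2, Pdlim1 and Kcnn1 for Bpifb3 (0.938), and Sel1l3, Ces1a and Glul for Bpifb4 (0.930). For Bpifa1 they were Hipk3, P4ha1 and Ruvbl1 (0.937), and for Bpifb1 Gtsf1l, Ovol2 and Lad1 (0.904). None of the 19365 genes reached 0.95 with any of these 5.

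The 6 gland genes varied far less. The summed level of Bpifb5, Bpifb9a and Bpifb9b ranged 72.5-fold over the libraries and the summed level of the 6 gland genes 2.23-fold. That gland sum is mostly Gpx6, with a mean of 26559. Singly the 6 genes ranged from 1.42-fold (Aqp5) to 3.10-fold (Gpx6). The summed lipocalins of the nasal glands (below) ranged 32.9-fold. In the 4 libraries where the 3 genes were highest the gland sum was 41321 in wildtype 5, 35570 in deletion 1, 41279 in deletion 5 and 42243 in deletion 6, within the wildtype range. The sums of vomeronasal neuron genes (Gnao1 and Gnai2, Trpc2 not analysed here) ranged 1.26-fold, those of sustentacular cells 1.27-fold, of mature neurons 1.25-fold, of respiratory ciliated cells 1.31-fold and of respiratory secretory cells 1.45-fold. The respiratory secretory sum is mostly Cyp2f2, with a mean of 16673, and the airway mucin gene Muc5ac of that list ranged 63.8-fold. Muc5ac had 16.9 to 1078 normalized counts in wildtype, with a median of 145, and 19.1 to 443 in the deletion, with a median of 54.4. It was highest in wildtype 6 and lowest in wildtype 5, the libraries with the least and the most Bpifb9b of that group, but deletion 5, high for Bpifb9b, had the most Muc5ac of the deletion group, and its part in the pattern was not tested. Leukocyte genes ranged 1.83-fold and neutrophil genes 4.94-fold, the latter highest in deletion 1, bone and cartilage genes 3.61-fold and skeletal muscle genes 9.41-fold. No list had a marker at 0 in all libraries. Between the groups 0 genes of these 10 lists passed by limma (46 tested, 3 at an unadjusted p under 0.05), by edgeR (46 tested, 3 unadjusted) or by DESeq2 (51 tested, 6 unadjusted). Over all genes tested, the unadjusted share was 6.68% by limma, 6.67% by edgeR and 5.32% by DESeq2.

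Lipocalins, the other abundant secretory products of the nasal glands, were compared with the Bpif genes because they also varied widely. Of 11 on the list 9 were tested and 0 passed in either direction (limma). At an unadjusted p under 0.05 stood 4 of 9, against 6.68% of all genes tested. The median log2 difference was -1.13, against 0.0087 over all genes tested, and all 9 differences were negative. The list was chosen with earlier results known, so this share is a description. Obp2b, an odorant-binding protein, was at 24672 ± 21387 normalized counts in wildtype animals and at 16790 ± 21070 in deletion animals (SD, n = 6 per group), and Obp2a had 24560 ± 18685 and 16381 ± 17922. Obp1a had 27271 ± 16674 and 10944 ± 6317, with an adjusted p of 0.638 (limma; 0.0104 unadjusted). It was among the 4 genes under 0.05, while Obp2a and Obp2b were not. The median ratio of the highest to the lowest library was 61.9 on this list, beside 72.1 for Bpifb9b. No relation with Bpifb9b passed: Pearson's r over the 12 libraries was -0.33 to -0.03 for the 9 genes and Spearman's rho -0.19 to 0.15 (adjusted permutation p 0.837 to 0.923 for r over 9 relations). Deletion 6, highest for Bpifb9b, had the lowest lipocalin sum, 8354, while deletion 1, second for Bpifb9b, had 154048, the highest of the deletion group.

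Other lists around the BPI fold had no call by limma, and edgeR and DESeq2 likewise called 0 genes of these and the lipocalins (31 tested with 5 at an unadjusted p under 0.05, and 39 tested with 7). Over all genes the unadjusted share was 6.67% by edgeR and 5.32% by DESeq2. Of 9 other BPI fold genes 3 were tested and 0 passed (limma, 0 unadjusted), with a median log2 difference of -0.19. Lbp, the lipopolysaccharide-binding protein, was at 757 ± 196 normalized counts in wildtype animals and at 667 ± 218 in deletion animals, and Pltp, the phospholipid transfer protein, had 287 ± 73.1 and 293 ± 24.4. Bpi itself was under the filter of limma and edgeR, at 6.16 ± 7.80 in wildtype and 0.357 ± 0.555 in the deletion. DESeq2, run without that filter, tested all 9 and had Bpi alone at an unadjusted p under 0.05 (0.00459, adjusted p 0.592). Of 8 genes of lipopolysaccharide recognition 7 were tested and 0 passed (limma, 0 unadjusted), with a median of 0.06. The receptor Tlr4 had 586 ± 92.9 and 583 ± 61.9, and its adaptor Myd88 had 194 ± 13.2 and 203 ± 17.4.

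Of 13 secreted defence proteins 12 were tested and 0 passed (limma, 1 unadjusted), with a median log2 difference of 0.10. Scgb1c1, a secretoglobin, was at 19755 ± 4697 normalized counts in wildtype animals and at 21770 ± 3804 in deletion animals, and Reg3g, a lectin that acts against bacteria, had 7353 ± 1573 and 8326 ± 3078. Ltf, the iron-binding lactoferrin, had 5339 ± 1090 and 5912 ± 2800. The median ratio of the highest to the lowest library was 2.56 on this list, beside 1.76 to 2.57 for the 5 Bpif genes of lower spread.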

How the data were processed

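Per the file headers, the authors deposited 1 table with, for each gene, a normalized count in each of 12 libraries, a signal equal to the read count divided by a size factor of the library. The authors' deposited table also holds their log2 ratio of wildtype to deletion, shrunken towards 0 judging by its values. The test statistic in the authors' deposited table is a score and was not used. The authors' deposited p-values and adjusted p-values belong to that comparison. STAR 2.6.0, DESeq2 and GRCm38.p6 are named in the submitters' processing notes, while for counter, annotation and strand the choice was not given in the sources used here. No pair of libraries was identical (0 pairs), and all library columns were matched by name.

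Groups were compared with limma 3.58.1 (trend option) on log2(value + 1), for the 19373 genes with a mean of at least 10, with Benjamini-Hochberg adjustment at 5% over all of them. This scale understates the change of low genes. Dividing the values by the worth of 1 read gave whole reads (at least 99.985% of values within 0.01), and the recovered reads were tested with edgeR 4.0.16 (67 genes called) and DESeq2 1.42.0 (88 called). Libraries held 13011763 to 23039733 reads, so counting error is small beside the spread between animals for these genes. The limma and edgeR steps were also run on simulated data, and the outcome is not used here. Correlations used 100000 permutations, or all orders within groups of 6. Each animal gave 1 library, so the limma, edgeR and DESeq2 p-values set a group difference against the spread between animals. Permutation p-values come from reordering or resplitting the libraries.

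The labels do not say whether replicate numbers in the titles pair the libraries, and the main comparison used no covariate. Transcripts and positions are from GENCODE M21 and promoters from RefSeq, both GRCm38; all 8 genes matched, and sequences were aligned with Biopython 1.88. These ran under Python 3.11.15 with scipy 1.17.1, pandas 2.3.3 and numpy 2.4.6, and under R 4.3.3. The 8 genes and all lists were chosen with earlier results of these data known. All 8 are named; outside them, the 3 genes with the highest r for each (clone names left out) and, of each gene list, the first gene and the 2 with the highest mean. The grouping of Bpifb5, Bpifb9a and Bpifb9b was made after their values were seen. Alternatives changed the pseudocount, filter, test and scaling, added a replicate block, or left out libraries. Lcn13, Lcn14 and Trpc2 were not analysed here.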

Additional observations from a re-analysis of the deposited data

How the results depend on the processing

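Under every alternative run, 0 of the 8 genes passed, and the smallest adjusted p of any of them was 0.456 (Bpifb5 without wildtype 5). At an unadjusted p under 0.05 stood 0 to 3 of the 8, among them 1 (Bpifb5) without a filter, where 2291 of 46297 genes did. Over all genes tested it was 533 of 18883 without the Gm10800 libraries and 1871 of 19448 without wildtype 5. The differences of Bpifb1, Bpifb4, Bpifb5, Bpifb9a and Bpifb9b kept their sign in all of them. Bpifa1 turned to -0.0088 with edgeR, -0.0040 with DESeq2 and -0.12 without the 4 libraries with over 1% of reads in Gm10800, a setting chosen after seeing the data, and ranged from -0.0755 to 0.0916 with 1 library left out. Bpifb3 turned to -0.0162 in that Gm10800 setting and ranged from -0.00068 to 0.162 with 1 library left out. Bpifb6 ranged from -0.193 to 0.0722, the latter without deletion 4. With 1 library left out, the log2 difference ranged from -0.30 to -0.03 for Bpifb4, 0.06 to 0.33 for Bpifb1, 1.03 to 1.98 for Bpifb5, 1.08 to 2.27 for Bpifb9a and 1.05 to 2.22 for Bpifb9b. Over all genes 72 were called, 40 with a mean of at least 50 (14407 genes tested), 61 to 79 with 1 library left out and 60 to 88 otherwise. The median of all genes was -0.12 without a filter and -0.16 in DESeq2, which both include low genes. The deviations of same-numbered libraries correlated at -0.15 to 0.36, 2 of 6 pairs were over 0.1, and 1 of 6 wildtype libraries correlated best with its own number. These values cannot show whether the libraries were paired by litter or batch. With the replicate block 71 genes and 0 of the 8 were called, and Bpifb5 had an unadjusted p of 0.0475 (limma). The block lowered the SE of Bpifa1, Bpifb1, Bpifb5, Bpifb9a and Bpifb9b and raised that of Bpifb6, Bpifb3 and Bpifb4. Of the 28 pairs 3 passed over the 12 libraries, with centred values, with a pseudocount of 5, with TMM scaling (chosen after seeing the data), without the Gm10800 libraries and without the 2 farthest libraries, 2 within wildtype and 4 within the deletion. Within wildtype r was 0.971 for Bpifb5 with Bpifb9a and 0.977 for Bpifb5 with Bpifb9b, neither passing. The lowest of the 8 genes, Bpifb5, had 48.5 normalized counts in its lowest library.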

Other observations

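A pair of genes on the list of secreted defence proteins, both named after their values were seen, also varied widely between animals. Dmbt1, a mucosal scavenger protein that binds bacteria, had 60.2 to 13162 normalized counts, lowest in wildtype 5 and highest in wildtype 3. Chil4, a chitinase-like protein, had 30.6 to 6206. Their differences between the groups did not pass, with adjusted p of 0.933 and 0.868 (limma). Wildtype 5, the wildtype library with the most Bpifb9b, was thus the lowest of the 12 for Dmbt1, while deletion 1, with the second most Bpifb9b, had 10069, the second highest value of Dmbt1.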
